A study of Mus musculus with 6 samples.

Results

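The semaphorins, plexins, neuropilins, ephrins and Eph receptors were described in the hippocampus of mice that carry an inducible Rbfox1 transgene. A gene was a member if its symbol, taken from the transcript names of the deposited table, had the form of a vertebrate semaphorin of classes 3 to 7, a plexin of classes A to D, a neuropilin, an ephrin-A or ephrin-B, or an EphA or EphB receptor. 53 of 53354 symbols met this rule, with 301 of the 133944 isoforms. The rule used no expression value, but the members were chosen with earlier results of these data known. The 53 members comprised 7 secreted class 3 semaphorins, 13 membrane-bound semaphorins, 2 neuropilins, 9 plexins, 5 ephrin-A ligands, 3 ephrin-B ligands, 9 EphA receptors and 5 EphB receptors. RNA was sequenced from hippocampi of 3 N-cre control mice and 3 N-cre;Fox1 mice, all C57BL/6 and 3 months old. All 6 mice carried the Nes-cre transgene, in which a Nestin promoter drives Cre. By the stainings of the study, Cre activity lay in granule and pyramidal cells of the hippocampus. Rbfox1, but not Cre activity, was stained together with the glial protein GFAP, and the 2 did not co-localize. The N-cre;Fox1 mice in addition carried 1 copy of an Rbfox1 cDNA in the Gt(ROSA)26Sor locus, driven by the CAG promoter once Cre had removed a STOP cassette. The endogenous Rbfox1 gene was intact in both groups, and the controls had Cre without the cDNA.

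Semaphorins act on plexins. Most secreted class 3 members first bind a neuropilin, which holds the ligand while the plexin signals, whereas membrane-bound members usually bind plexins directly. Ephrins and Eph receptors both sit in the membrane of neighbouring cells and can signal in both directions, ephrin-A through a lipid anchor and ephrin-B through a cytoplasmic tail. In the adult hippocampus these families are known for roles in dendritic spines, mossy fiber pruning and contacts between astrocytes and neurons. Rbfox1, an RNA-binding protein that regulates splicing and mRNA stability, recognizes the RNA motif GCAUG, so that both the level of each gene and the division of its reads among isoforms were compared.

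Between 40463587 and 62141336 expected counts were assigned per mouse, and the members took 0.311 to 0.319% of them. The 11 markers of hippocampal principal neurons, Prox1 and Wfs1 among them, summed to 60019 to 69731 normalized counts, that is counts scaled to a common library size, in every mouse. The summed normalized count of Rbfox1 was 15286, 14456 and 14698 in the N-cre mice and 15939, 13571 and 15283 in the N-cre;Fox1 mice, so that the 2 genotypes overlapped for the gene that was to be raised. Its short isoform Rbfox1-202 was higher in each N-cre;Fox1 mouse, with 2430, 2167 and 2353 against 1753, 1779 and 1881 (log2 fold change 0.36 ± 0.0587 (SE), edgeR adjusted p = 0.623). For N-cre;Fox1 hippocampus the study itself reported a modest rise of Rbfox1 mRNA, without showing the data, and more Rbfox1 protein by immunoblot. Ttr, a choroid plexus gene, stood at 111007 in N-cre replicate 3 and 251900 in N-cre;Fox1 replicate 2 but between 274 and 672 in the other 4 mice, and values without these 2 mice are given wherever a member moved with it. Xist was high only in replicate 1 of each genotype (23514 and 22029, against 17.3 to 22.2). In bulk tissue, fewer cells of a type and less RNA per cell cannot be told apart, and the p-values measure the spread between these 6 mice.

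Coding segments by which some isoforms of Sema6d, Epha7, Epha5 and Nrp2 differ are shown first, because the shares of these genes are given by whether an isoform holds them. The isoforms differ outside these segments as well, mostly in their first or last exons. They were read from the GENCODE M21 transcripts on mm10. Capitals mark the segment, and lower case the 12 neighbouring bases of the spliced transcript on each side. A pair of in-frame exons of Sema6d, of 57 bases at chr2:124660705-124660761 (+) and 168 bases at chr2:124662204-124662371 (+), are held by Sema6d-206 and skipped by Sema6d-208.
Sema6d 57-base exon: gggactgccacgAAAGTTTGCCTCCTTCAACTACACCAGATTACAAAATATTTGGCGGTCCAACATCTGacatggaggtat
Sema6d 168-base exon: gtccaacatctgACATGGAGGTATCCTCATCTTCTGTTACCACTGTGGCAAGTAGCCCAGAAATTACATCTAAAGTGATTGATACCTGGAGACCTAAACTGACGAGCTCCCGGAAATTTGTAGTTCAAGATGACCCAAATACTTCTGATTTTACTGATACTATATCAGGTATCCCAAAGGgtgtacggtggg

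Epha7-202 leaves the sequence of the full receptor after the membrane-spanning part and ends before the kinase. Its own coding end at chr4:28946219-28946253 (+), stop codon included, comprises 35 bases. Epha7-201 and Epha7-203 both continue into the kinase and differ in coding sequence by 12 bases at chr4:28947528-28947539 (+), which Epha7-201 has.
Epha7-202 coding end: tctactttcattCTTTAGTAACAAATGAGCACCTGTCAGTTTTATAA
Epha7-201 12-base segment: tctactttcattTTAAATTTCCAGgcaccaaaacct

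In Epha5, an in-frame exon of 66 bases at chr5:84117561-84117626 (-) is present in Epha5-201, Epha5-202 and Epha5-203 and absent from Epha5-204. In Nrp2, 51 in-frame bases at chr1:62812534-62812584 (+) are present in Nrp2-202 and absent from Nrp2-204.
Epha5 66-base exon: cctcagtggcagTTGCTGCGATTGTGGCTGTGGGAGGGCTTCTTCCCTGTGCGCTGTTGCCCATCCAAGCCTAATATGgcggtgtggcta
Nrp2 51-base exon: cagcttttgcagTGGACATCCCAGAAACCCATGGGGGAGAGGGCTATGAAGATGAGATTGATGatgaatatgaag

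The letters GCATG, the DNA form of the Rbfox motif read on the transcript strand only, occur in none of the 6 segments themselves. The introns beside the segments were not searched, so that motifs there are neither counted nor excluded. In the leading isoform of each gene, untranslated parts included, they occurred at least once in 50 of 51 members with an annotated sequence (98%) and in 84.6% of 17766 tested genes. The members' leading isoforms were also longer, with a median of 4482 bases against 2707, and the median density was 1.02 per kb against 0.869 per kb. Plxna4-201 held the most among the members, 15 in 12877 bases.

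**Figure D1:**
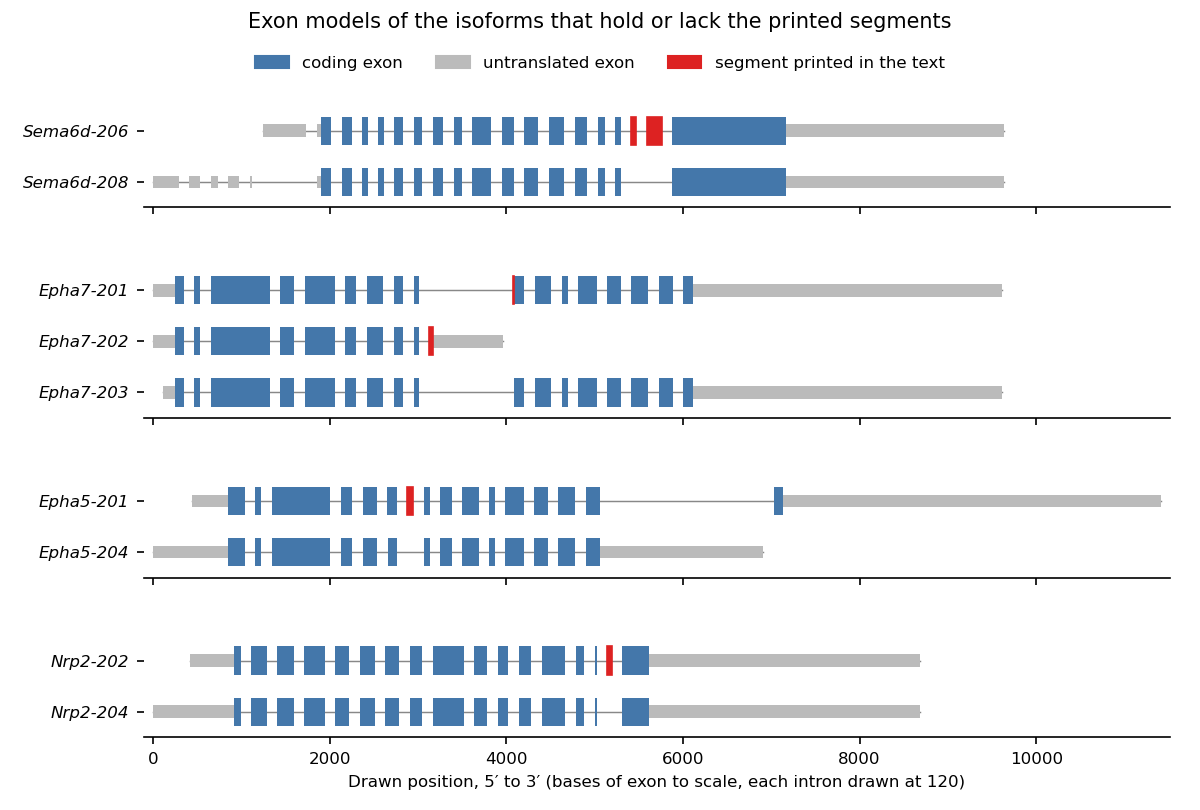
Exon models of 9 isoforms of Sema6d, Epha7, Epha5 and Nrp2, 5′ to 3′, with exons to scale in bases and every intron drawn at the same width. Blue boxes are coding exons, grey boxes untranslated exons and red boxes the segments printed in the text. A gap wider than an intron leaves room for an exon of another isoform, and the truncated Epha7-202 ends where Epha7-201 and Epha7-203 go on.

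Levels were compared between genes in TPM, a unit that corrects the counts for transcript length and scales every mouse to the same total. 36 of the 53 members had a mean of at least 10 TPM, and 3 had less than 1 TPM. The most abundant were the receptor Epha4, with 122 ± 2.14 TPM in N-cre and 126 ± 5.72 TPM in N-cre;Fox1 hippocampus (SD, n = 3 each), and the ligand Efnb3, with 126 ± 7.79 and 119 ± 8.67 TPM. These 2 did not differ beyond their spread. They were followed by Sema7a (mean of all mice 91.2 TPM), Epha7 (78.3 TPM), Plxna1 (77.3 TPM), Sema6b (75.2 TPM) and Efna3 (67.5 TPM). Epha1 (0.2 TPM), Efna4 (0.705 TPM) and Sema3a (0.994 TPM) lay at the bottom.

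Summed by role, membrane-bound semaphorins had the largest sum of the 8 roles, from 415 to 419 TPM in the N-cre and 404 to 429 TPM in the N-cre;Fox1 mice. EphA receptors held 309 to 328 and 313 to 343 TPM, and plexins 308 to 324 and 316 to 327 TPM. Ephrin-B ligands stood at 146 to 160 and 140 to 162 TPM, of which most was Efnb3. EphB receptors held 107 to 110 and 100 to 109 TPM, ephrin-A ligands 84.5 to 91.4 and 82.9 to 86.5 TPM, and secreted semaphorins 42.4 to 50.9 and 40.4 to 59.8 TPM. In TPM, only for the neuropilins did the sums of the genotypes not overlap. They were 74.6, 82.2 and 80.7 TPM in the N-cre mice and 86.0, 82.5 and 83.2 TPM in the N-cre;Fox1 mice. Summed as normalized counts the neuropilins did overlap, with 8223, 9036 and 8927 against 9403, 8899 and 9092. Of the 2 neuropilins Nrp1 separated the genotypes and Nrp2 overlapped, and on normalized counts 12.2% of all genes tested separated them.

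**Figure D2:**
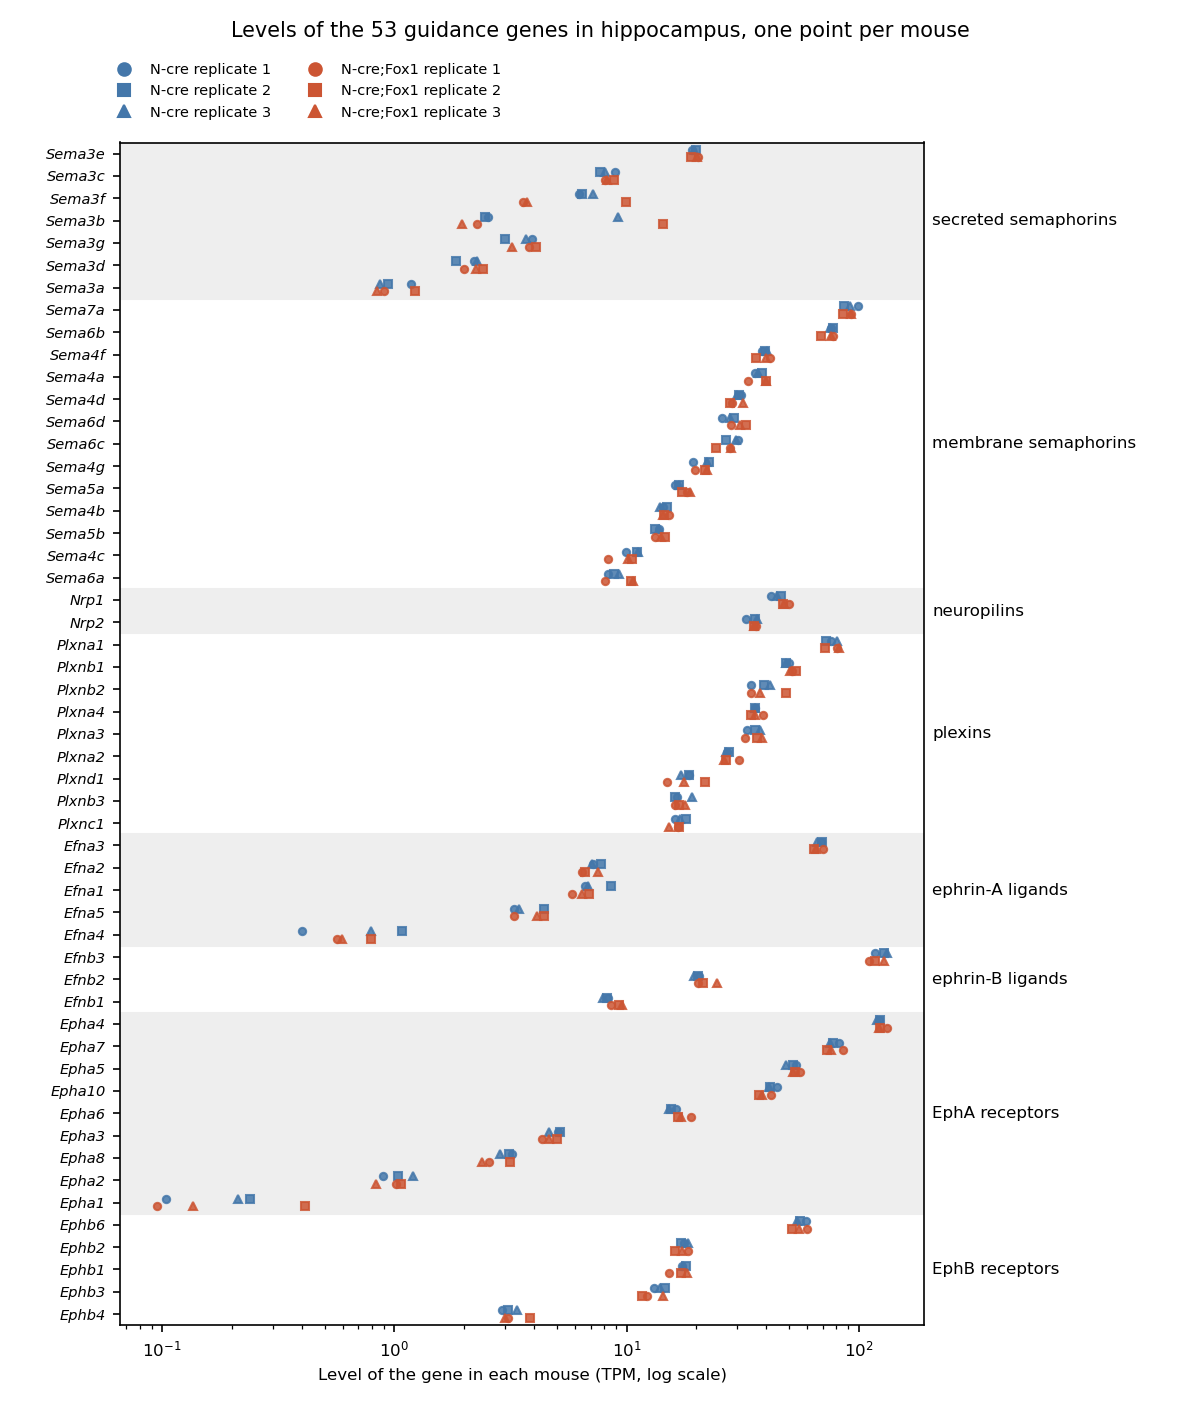
Level of each of the 53 members in each mouse in TPM on a log scale, grouped by role and ordered by mean, with N-cre mice in blue, N-cre;Fox1 mice in red and the marker shape giving the replicate. Epha4 and Efnb3 lie above 100 TPM in every mouse, and for most members the 6 points nearly coincide, whereas Sema3b, Sema3f, Epha1 and Efna4 spread widely.

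No member gene passed an adjusted p of 0.05 between N-cre;Fox1 and N-cre mice (edgeR quasi-likelihood test), beside 5 of 18924 genes, or 0.0264%, over the whole table. An unadjusted p under 0.05 was reached by 3 of 53 members (5.66%), beside 6.19% of all genes. The 6 mice separated by genotype without overlap for 3 members (5.66%), beside 12.2% of all genes. Neither share was above that of all genes. DESeq2 and limma-voom called no member either. The log2 fold changes were centred on 0.01 (28 members higher and 25 lower), and ran from -0.20 for Efna1 to 0.48 for Sema3b. The median absolute value was 0.0653, beside 0.0668 over all genes. In 50 members the estimate was below 0.2 in either direction. The 95% interval lay within 0.5 of 0 on the log2 scale for 48 members and within 0.25 for 30, so that for most members a change as large as 0.5 lay outside the interval, while for Sema3b, Sema3f, Epha1, Epha2 and Efna4 the data allowed it.

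**Figure D3:**
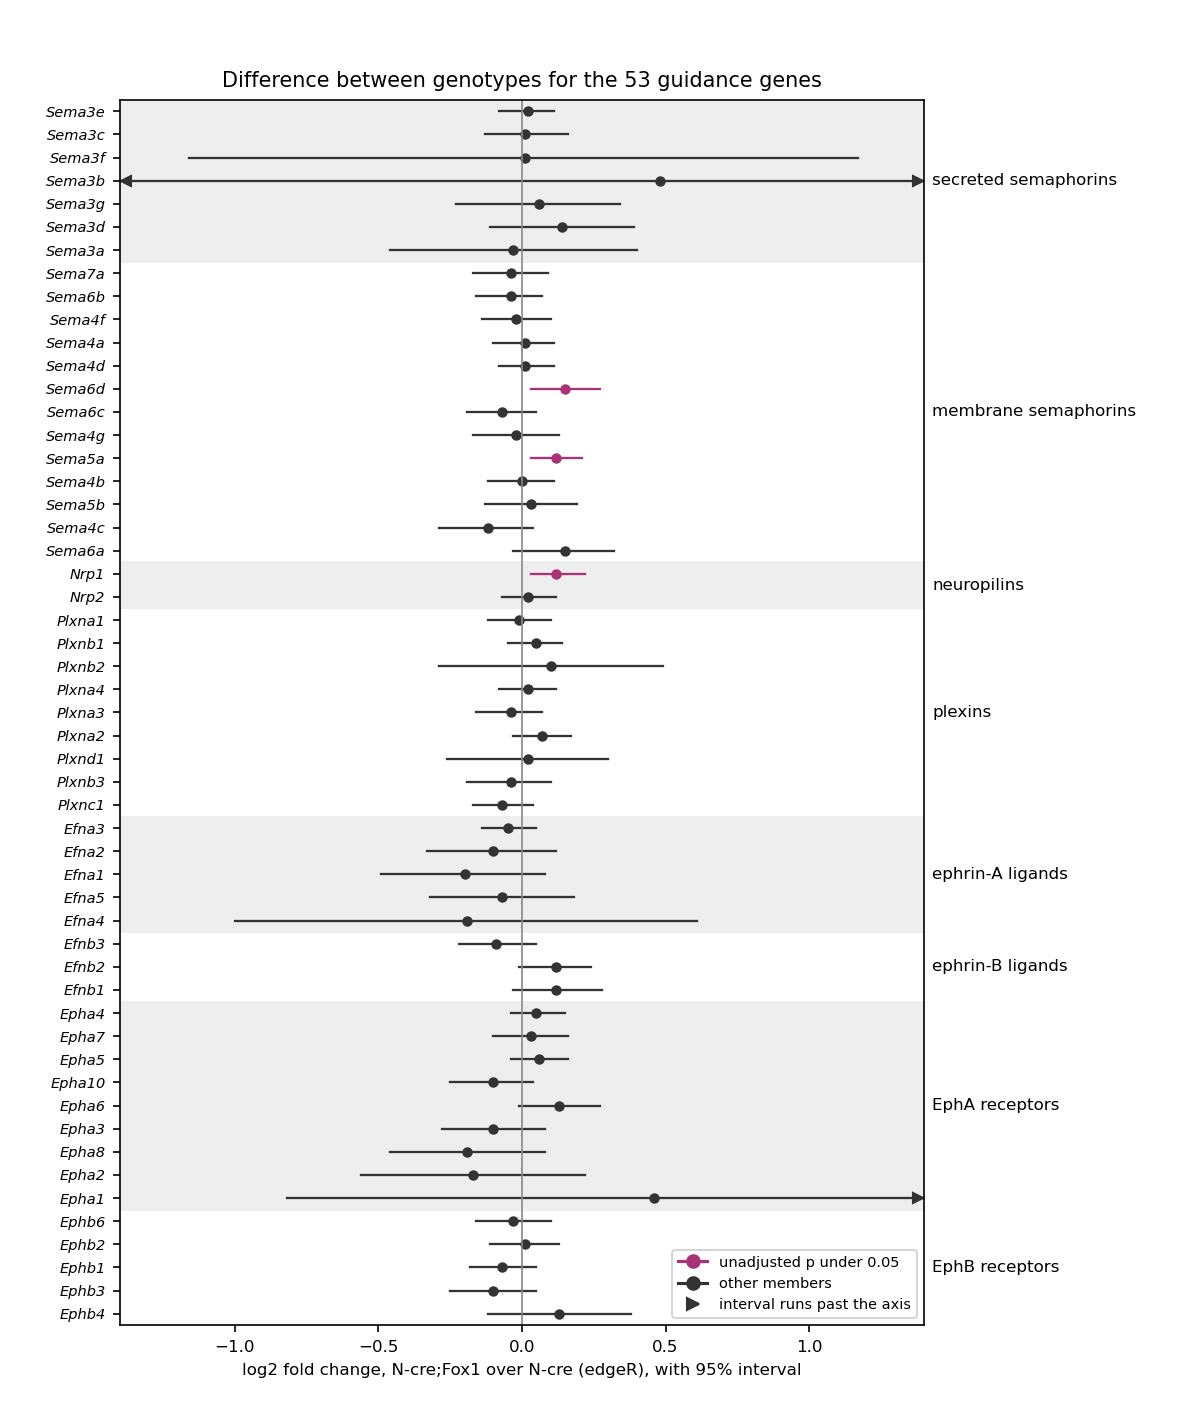
log2 fold change of N-cre;Fox1 over N-cre for the 53 members by role, each point an edgeR estimate from 3 against 3 mice with its 95% interval, and arrowheads where an interval runs past the axis. Sema5a, Sema6d and Nrp1, in purple, are the 3 with an unadjusted p under 0.05, the intervals of all others cover 0, and those of Sema3b, Sema3f, Efna4 and Epha1 are the widest.

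Among the secreted semaphorins, which guide and repel axons as diffusible ligands, 6 were higher and 1 lower in N-cre;Fox1 hippocampus (median log2 fold change 0.02), and none had an unadjusted p under 0.05. Sema3e, a ligand that can act on Plxnd1 without a neuropilin, was the most abundant, with 19.1, 20 and 19.6 TPM in the N-cre mice and 20.3, 18.9 and 20.2 TPM in the N-cre;Fox1 mice. On the counts it differed by a log2 fold change of 0.02 ± 0.0413 (SE; 95% interval -0.08 to 0.11). Sema3c followed with 8.25 ± 0.628 and 8.39 ± 0.400 TPM (SD, n = 3), and again the genotypes overlapped.

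Sema3f and Sema3b varied between mice more than between genotypes. Sema3b, at chr9:107597674-107609229, had normalized counts of 136, 140 and 480 in the N-cre mice and 114, 813 and 118 in the N-cre;Fox1 mice. Both high values came from the mice with high Ttr, and the log2 fold change of 0.48 had an interval from -2.62 to 3.58. Sema3f, the class 3 ligand known for pruning mossy fiber branches and spines through Nrp2, had counts of 284, 281 and 334 against 192, 510 and 198 (log2 fold change 0.01 ± 0.448). Without the 2 mice with high Ttr, a choice made after the data were seen, Sema3b stood at -0.24 ± 0.168 and its highest count was 1.22 times its lowest instead of 7.11 times. In the same 4 mice Sema3f was at -0.53 ± 0.127 (edgeR unadjusted p = 0.00191, adjusted p = 0.368), lower in both remaining N-cre;Fox1 mice than in both remaining N-cre mice. Leaving out N-cre;Fox1 replicate 2 alone gave -0.61 for Sema3f (edgeR adjusted p = 0.274). The result for Sema3f therefore turned on that mouse. The summed normalized count of 9 markers of thalamus and striatum was 6386, 6915 and 7352 in N-cre and 5617, 9171 and 5838 in N-cre;Fox1 mice. It was thus also lowest in the 2 N-cre;Fox1 mice with low Ttr and highest in N-cre;Fox1 replicate 2. Of these markers 3 had higher and 6 lower estimates. The part of such tissue in the values of Sema3f was not tested.

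Plxnb2, a receptor for class 4 semaphorins, showed the same order, with 4442, 4505 and 5233 normalized counts in N-cre and 4480, 6067 and 4625 in N-cre;Fox1 mice. Its highest count was 1.37 times its lowest in the 6 mice and 1.04 times in the 4 mice with low Ttr, in which the log2 fold change was 0.03 ± 0.0388. Epha1 went from 0.46 in all mice to -0.18, on counts of at most 30.0. Ephb4 and Epha2 were also highest in the 2 mice with high Ttr, by narrow margins. Without these mice Ephb4 went from 0.13 to 0.05, and Epha2 stayed at -0.17. Plxnd1 reached 2763 in N-cre;Fox1 replicate 2 but only 2210 in N-cre replicate 3, and stood at 0.02 in 6 mice and -0.14 ± 0.06 without both (edgeR adjusted p = 0.848). The 7 choroid plexus markers together, Ttr, Folr1, Kl, Clic6, Kcne2, Otx2 and Aqp1, summed to 119745 and 269620 normalized counts in the 2 mice and 1439 to 1976 in the others.

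**Figure D4:**
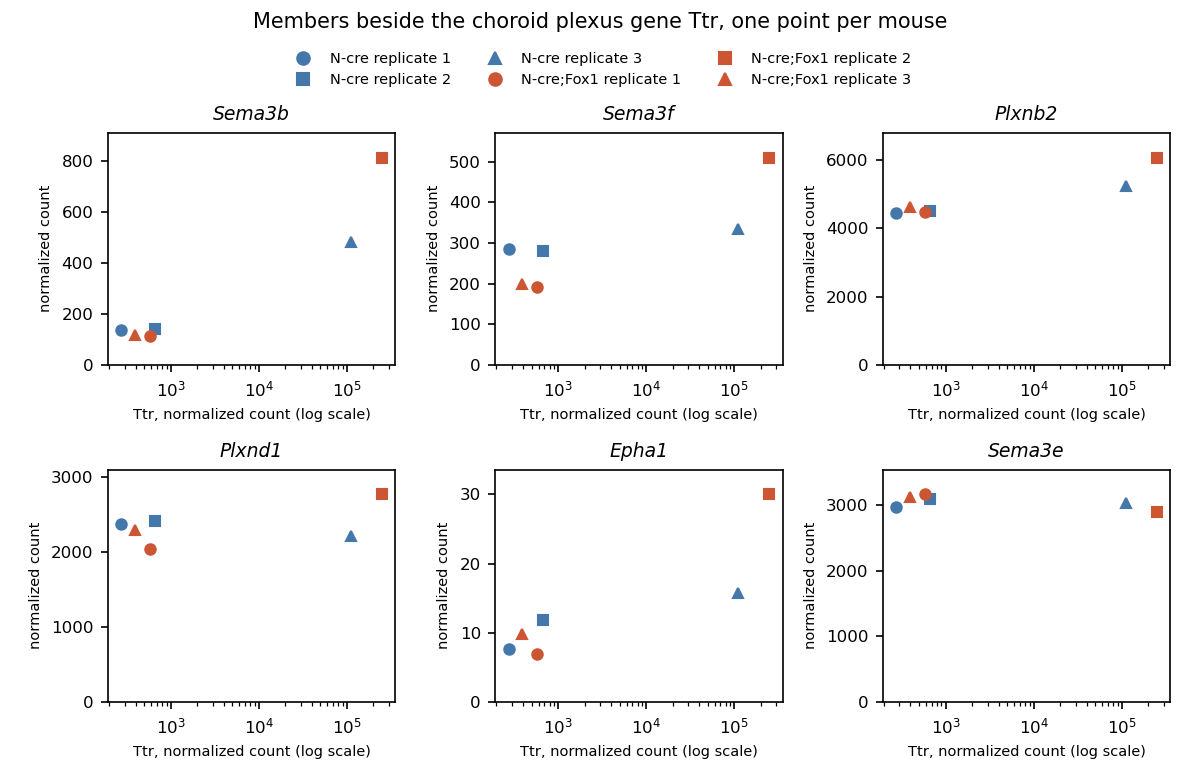
Normalized counts of 6 members (linear axes from 0) against the normalized count of the choroid plexus gene Ttr (log axis), one point per mouse, blue for N-cre and red for N-cre;Fox1. Sema3b, Sema3f, Plxnb2 and Epha1 are highest in the 2 mice with high Ttr, Plxnd1 is highest in N-cre;Fox1 replicate 2 alone, and Sema3e is shown as a member whose counts, 2898 to 3166, are nearly level.

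The membrane-bound semaphorins act at contacts between cells, some of them also as receptors. Of the 13, 6 were higher and 7 lower (median log2 fold change 0.00 after rounding, range -0.12 to 0.15). An unadjusted p under 0.05 was reached by 2 of them (15.4%), both higher, beside 6.19% of all genes. The most abundant was Sema7a, which is anchored by a lipid and binds plexin C1 and integrins, with 99, 86.2 and 91.7 TPM in the N-cre mice and 93.1, 85.4 and 92.2 TPM in the N-cre;Fox1 mice. The genotypes overlapped (log2 fold change -0.04 ± 0.0575). Sema6b, a ligand of class A plexins, had 76.3 ± 1.07 and 74.1 ± 4.81 TPM (SD, n = 3), and Sema4f, a semaphorin found at synapses, 39.5 ± 0.972 and 39.2 ± 2.75 TPM. Neither differed beyond its spread.

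Sema5a, at chr15:32244810-32696341, carries thrombospondin repeats and is known to restrain excitatory synapses of dentate granule cells. Its normalized counts were 3976, 4120 and 4099 in the N-cre mice and 4492, 4179 and 4575 in the N-cre;Fox1 mice. All 3 N-cre;Fox1 mice thus lay above all N-cre mice, by a log2 fold change of 0.12 ± 0.0399 (edgeR unadjusted p = 0.0129, adjusted p = 0.756), which failed the correction. The direction held in all alternatives, with log2 fold changes from 0.09 to 0.17.

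Sema6d, at chr2:124089969-124667770, is a class 6 ligand of Plxna1 and Plxna4. It had 3585, 4000 and 3820 normalized counts in N-cre mice and 3923, 4447 and 4287 in N-cre;Fox1 mice. The groups overlapped, since N-cre;Fox1 replicate 1 lay below N-cre replicate 2. The log2 fold change was 0.15 ± 0.0543 (edgeR unadjusted p = 0.0207, adjusted p = 0.772), and 0.12 without the mice with high Ttr.

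Nrp1, the co-receptor for class 3 semaphorins and for vascular endothelial growth factor, lies at chr8:128358604-128503363 and was the third member with an unadjusted p under 0.05. It had 3423, 3759 and 3599 normalized counts in the N-cre and 4073, 3777 and 3879 in the N-cre;Fox1 mice, and the lowest N-cre;Fox1 mouse lay just above the highest N-cre mouse. Nrp1 differed by a log2 fold change of 0.12 ± 0.0433 (edgeR unadjusted p = 0.0177, adjusted p = 0.77). Nrp2, the co-receptor preferred by Sema3f, overlapped, with 4800, 5277 and 5328 against 5330, 5123 and 5214 (log2 fold change 0.02 ± 0.0441). The summed count of 8 astrocyte markers was also higher in each N-cre;Fox1 mouse, at 254732, 234850 and 244731 against 232986, 223386 and 222693. Of these markers 4 (50%) had an unadjusted p under 0.05, beside 6.19% of all genes. All 4 were higher (Gfap, Aqp4, Gja1 and Slc1a2), and none passed the correction. Slc1a3, Aldh1l1 and S100b had lower estimates, with -0.02, -0.14 and -0.03, and Aldoc stood at 0.03, so that 5 were higher and 3 lower (median 0.06). Gfap stood at a log2 fold change of 0.38 ± 0.07 (edgeR adjusted p = 0.32). The part of astrocyte RNA in the values of Sema5a, Sema6d and Nrp1 was not tested.

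Plexins, the transmembrane receptors that signal through a GTPase-activating domain, showed log2 fold changes between -0.07 and 0.10, 5 higher and 4 lower. Plxna1 stood at 76.1, 72.0 and 80.4 TPM in N-cre and 81.0, 71.8 and 82.6 TPM in N-cre;Fox1 mice, with a log2 fold change of -0.01 ± 0.0493 on the counts. Plxnb1, a receptor for Sema4d, stood at 49.0 ± 0.896 and 51.9 ± 1.61 TPM (SD, n = 3; log2 fold change 0.05 ± 0.0418). Plxna4 was the steadiest among the N-cre mice, with 35.7, 35.8 and 35.8 TPM, and 38.6, 34.5 and 35.9 TPM in the N-cre;Fox1 mice. On normalized counts none of the 9 separated the genotypes, although in TPM Plxnb1 did, at 50, 48.4 and 48.5 against 51.5, 53.7 and 50.6 TPM.

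All 5 ephrin-A ligands had lower estimates in N-cre;Fox1 hippocampus, with a median log2 fold change of -0.10 and a range from -0.20 to -0.05, while the median of all genes was 0.00. None had an unadjusted p under 0.05, and for each of them the genotypes overlapped. Efna3 made up most of the class, with 69.0, 69.6 and 66.3 TPM against 70.4, 64.3 and 65.4 TPM (log2 fold change -0.05 ± 0.0443). Efna1 had 222, 285 and 228 normalized counts against 196, 227 and 215 (-0.20 ± 0.131, 95% interval -0.49 to 0.08). The highest N-cre count of Efna1 came from replicate 2, which also had the highest Efna2, Efna3, Efna4 and Efna5 counts of the N-cre group.

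The ephrin-B ligands, which also signal back into the cell that bears them, went both ways. Efnb3, which is known at hippocampal synapses, had 8507, 9254 and 9554 normalized counts in N-cre mice and 8052, 8381 and 9241 in N-cre;Fox1 mice (log2 fold change -0.09 ± 0.0595). Efnb2 had 2135, 2071 and 1986 against 2084, 2210 and 2418 (0.12 ± 0.0565, edgeR unadjusted p = 0.0667, adjusted p = 0.808). X-linked Efnb1 had 614, 580 and 560 against 632, 634 and 646, and was the third member, after Sema5a and Nrp1, without overlap (0.12 ± 0.0713, edgeR unadjusted p = 0.113, adjusted p = 0.852). Within N-cre the mouse with high Xist had the most Efnb1, and within N-cre;Fox1 the least, by a narrow margin (632 against 634 and 646). Xist was high in a single mouse of each genotype, and a link of Efnb1 to Xist was not tested. The other X-linked members, Plxna3 and Plxnb3, both stood at -0.04 and overlapped.

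The EphA receptors, tyrosine kinases that bind mainly ephrin-A, were 5 higher and 4 lower (median log2 fold change 0.03), none with an unadjusted p under 0.05. Epha4, which also binds ephrin-B and is known to control spine shape in CA1 neurons, had 16146, 16423 and 15784 normalized counts in N-cre and 17634, 16141 and 16341 in N-cre;Fox1 mice. The difference was 0.05 ± 0.0427. Epha7 had 82.0, 77.4 and 75.4 TPM against 85.5, 73.3 and 76.0 TPM, and Epha5 53.9, 52.1 and 48.6 TPM against 55.9, 53.1 and 52.1 TPM. Both overlapped. The widest log2 difference among EphA receptors with at least 10 TPM was that of Epha6, 0.13 ± 0.063, on counts of 1333, 1264 and 1259 against 1527, 1308 and 1382 (edgeR unadjusted p = 0.0684, adjusted p = 0.808).

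Among the EphB receptors, 2 were higher and 3 lower. Ephb6, which lacks kinase activity, had 59.1, 56.0 and 54.1 TPM in N-cre and 60.1, 51.5 and 55.3 TPM in N-cre;Fox1 mice. Ephb2, a receptor that associates with NMDA receptors, had 17.8 ± 0.602 and 17.3 ± 1.15 TPM, and Ephb1 17.7 ± 0.385 and 16.9 ± 1.59 TPM (SD, n = 3). All 3 overlapped between genotypes, with log2 fold changes of -0.03, 0.01 and -0.07.

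The same comparison was then made for isoforms, the unit at which the study tested. Of the 301 member isoforms 145 were annotated as protein coding and 44 had no count in any mouse. 164 passed the filter on low counts, and 63 of these had no protein-coding annotation. In 33 members a single isoform took at least 90% of the gene's expected counts, while 16 members had 2 or more isoforms of at least 20%. No member isoform passed an adjusted p of 0.05 in edgeR, where the share over all 50556 isoforms was 0.0%. DESeq2 called 1, Sema4a-201, but the share that DESeq2 called over all isoforms was not counted. 12 member isoforms (7.32%) had an unadjusted p under 0.05, beside 4.78% of all isoforms, 9 of them higher and 3 lower. 23 (14.0%) separated the genotypes, beside 11.5% of all isoforms. In the edgeR test of isoform use within a gene no member of 36 was called, where 0.831% of 10591 genes were. In that test 2 members (5.56%), Ephb3 and Epha4, had an unadjusted p under 0.05, beside 3.01% of all genes. With limma-voom 1 member was called, Epha4, but its share over all genes was not counted. On simulated counts the edgeR test of isoform use recovered few of the changed genes, and most of its calls were of unchanged ones. The shares given here therefore rest on the values of each mouse.

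The member isoform with the lowest p belonged to Sema4a, a class 4 semaphorin known from the immune and nervous systems. Sema4a-201, at chr3:88435959-88455739, had 358, 283 and 344 normalized counts in N-cre mice and 144, 158 and 203 in N-cre;Fox1 mice, with a gap between the groups. The log2 fold change was -0.96 ± 0.177 (95% interval -1.39 to -0.54). The edgeR unadjusted p was 0.00133 and the adjusted p 0.677, while DESeq2 gave an adjusted p of 0.00319, and over all alternatives the adjusted p ran from 0.00319 to 0.999. The direction held in every alternative, from -1.13 to -0.87. As a share of the gene, Sema4a-201 stood at 17.7, 14.2 and 17.4% against 7.62, 7.79 and 9.77% (exact permutation p = 0.1, two-sided, the smallest that 3 against 3 mice allow). The gene as a whole did not move with it, at 2013, 1997 and 1970 against 1892, 2027 and 2088 normalized counts. Sema4a-213, the leading isoform, held 40.7 ± 5.52 and 37.5 ± 5.65% (SD, n = 3). Sema4a-214 held 9.58 ± 5.5 and 18.8 ± 6.66%, and its groups overlapped. These isoforms have the same coding length of 2280 bases and differ in their first exons. 180 bases of Sema4a-201 are in no other tested isoform of the gene. The paper that produced these libraries lists this isoform as changed, so that its choice was not independent of them.

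In Sema6d the isoform with both printed exons was higher and the isoform without them lower. Sema6d-206 had 1147, 1640 and 1533 normalized counts in N-cre and 1770, 2103 and 2029 in N-cre;Fox1 mice (log2 fold change 0.45 ± 0.145, edgeR unadjusted p = 0.0199, adjusted p = 0.99). Sema6d-208 had 1696, 1249 and 1381 against 1202, 1028 and 1165 (-0.35 ± 0.126, edgeR unadjusted p = 0.0304, adjusted p = 0.99). In neither isoform did the genotypes overlap.

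Summed over all isoforms that hold it, the 168-base exon of Sema6d was carried by 42.1, 55.4 and 51.0% of the gene's expected counts in N-cre mice and by 58.2, 65.1 and 62.8% in N-cre;Fox1 mice. The 57-base exon was carried by 43.3, 56.9 and 53.8% against 57.4, 61.3 and 58.4%. For both exons every N-cre;Fox1 mouse lay above every N-cre mouse (exact permutation p = 0.1 for each). N-cre replicate 1 was the lowest by far, and for the 57-base exon the gap between the highest N-cre and the lowest N-cre;Fox1 mouse was below the spread within either group. Sema6d-206 and Sema6d-208 also begin in different 5′ exons, and Sema6d-206 has only 1 base that no other tested isoform covers.

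In Epha4 the 2 leading isoforms went in opposite directions while their sum stayed level. Epha4-201 held 59.7, 64.1 and 62.1% of the gene in N-cre mice and 44.6, 58.2 and 31.0% in N-cre;Fox1 mice. Epha4-205, annotated as a target of nonsense-mediated decay, held 39.2, 34.8 and 36.8% against 54.0, 40.7 and 68.2% (log2 fold change of its count 0.61 ± 0.186, edgeR unadjusted p = 0.0171, adjusted p = 0.99). The N-cre mice lay close together, whereas the N-cre;Fox1 mice ran widely, with replicate 2 near the controls. Both isoforms have the same coding length of 2958 bases, with 6328 and 6315 bases in all. Epha4-201 has 7 bases that no other tested isoform covers and Epha4-205 has 0, so that almost no read can tell them apart and their shares rest on how RSEM divided shared reads.

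Epha7 was divided between a truncated and a full receptor. The truncated Epha7-202, which is known to block signaling of the full receptor, held 45.9, 49.0 and 46.3% in N-cre mice and 46.7, 42.7 and 44.8% in N-cre;Fox1 mice, with overlap between the genotypes (exact permutation p = 0.3). With all isoforms that hold its coding end, the share was 48.6 ± 1.52 and 46.3 ± 1.94% (SD, n = 3). Epha7-201, the full receptor with the 12-base segment, held 32.8, 29.3 and 31.2% against 32.9, 43.6 and 36.4%, the lowest N-cre;Fox1 mouse being level with the highest N-cre mouse. Its normalized count was 0.29 ± 0.0937 higher on the log2 scale (edgeR unadjusted p = 0.0201, adjusted p = 0.99). Epha7-203, which lacks the segment, stood at 16.9, 16.9 and 16.8% against 15, 9.13 and 15.8%. N-cre;Fox1 replicate 2 had the most Epha7-201 and the least Epha7-203, and without both mice with high Ttr the log2 fold change of Epha7-201 was 0.19.

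Epha5-204, without the 66-base exon, had 1667, 1653 and 1579 normalized counts in N-cre mice and 1818, 1846 and 1729 in N-cre;Fox1 mice (0.14 ± 0.0489, edgeR unadjusted p = 0.0282, adjusted p = 0.99). As a share it overlapped, with 24.3, 24.9 and 25.6% against 25.5, 27.5 and 26%. The exon itself was carried by 72.9 ± 0.759% of the gene's counts in N-cre and 71.4 ± 1.35% in N-cre;Fox1 hippocampus (SD, n = 3; exact permutation p = 0.2). Epha5-202 was lower as a share, at 24.9, 21.9 and 23.1% against 19.9, 18.6 and 19.9%, without overlap. Its normalized count did not pass the unadjusted threshold (edgeR unadjusted p = 0.063, adjusted p = 0.99).

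In Nrp2 the 51-base exon was carried by 36.3, 37.5 and 39.0% of the counts in N-cre mice and by 34.2, 34.0 and 33.8% in N-cre;Fox1 mice. The groups did not overlap (exact permutation p = 0.1), and the N-cre;Fox1 mice spanned under 1 percentage point. Nrp2-202, the isoform that holds most of it, had an unadjusted p of 0.131 as a normalized count (edgeR adjusted p = 0.99). Nrp2-205, which leads the gene, held 39.5 ± 0.796 and 40.6 ± 0.742% (SD, n = 3).

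Of the EphB isoforms, Ephb2-202, whose 3′ end reaches farther than in the other forms, held 21.9, 20.9 and 21.8% of Ephb2 in N-cre and 23.5, 25.9 and 25.5% in N-cre;Fox1 mice. Its normalized count was 0.22 ± 0.0847 higher on the log2 scale (edgeR unadjusted p = 0.0392, adjusted p = 0.99), and 6101 of its 10902 bases are in no other tested isoform, so that reads can place it. Ephb4-201 held 66.2, 62.1 and 35% against 71.3, 71.9 and 96.5%, on counts of 184, 184 and 105 against 212, 260 and 285. N-cre replicate 3 and N-cre;Fox1 replicate 3 stood apart from their groups, and without both mice with high Ttr its log2 fold change went from 0.68 to 0.43. Only 71 bases of Ephb4-201, and no junction, are in no other tested isoform. Ephb4-205, with 0 such bases, held 61.0% in N-cre replicate 3 and 0.0% in N-cre;Fox1 replicate 3. The shares of Ephb4 thus rest in part on how RSEM divided shared reads. Ephb3-202, a retained-intron form, was rare, with 45.6, 129 and 83.6 against 21.7, 0 and 15.2 normalized counts; it was named after its values were seen. For the remaining named isoforms, Sema5a-201 (99.9% of its gene) and Nrp1-201 (97.1%), the difference was that of the gene, 0.12 each.

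**Figure D5:**
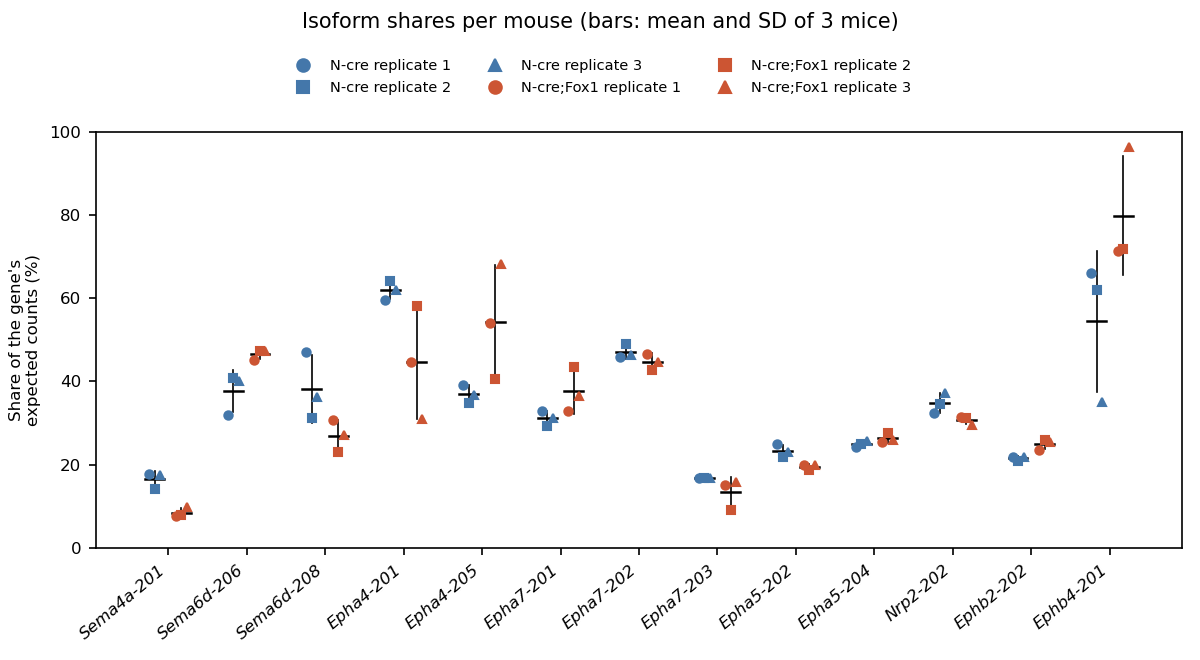
Share of 13 isoforms in the expected counts of their gene, in percent, one point per mouse (blue N-cre, red N-cre;Fox1, marker shape for the replicate), with a horizontal bar for the mean and a vertical bar for the SD of 3 mice. Sema4a-201 lies between 14.2 and 17.7% in N-cre and between 7.62 and 9.77% in N-cre;Fox1 mice, whereas the Epha4 and Ephb4 isoforms spread widely within a genotype.

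Genes that work with the members were taken from 3 lists. Of 28 co-receptors and effectors of semaphorin signaling, 15 were higher and 13 lower (median log2 fold change 0.00), none passed the correction and 2 (7.14%) had an unadjusted p under 0.05, beside 6.19% of all genes. These were Farp1, a guanine nucleotide exchange factor that binds plexins, with 3785, 3381 and 3432 against 3897, 3808 and 3791 normalized counts (0.12 ± 0.0444), and Dpysl4, a member of the collapsin response mediator family, with 4157, 4076 and 4085 against 3939, 3783 and 3954 (-0.08 ± 0.0326). The edgeR adjusted p was 0.782 for Farp1 and 0.799 for Dpysl4. Of 22 effectors of Eph and ephrin signaling, 13 were higher and 9 lower (median 0.01), and 2 (9.09%) had an unadjusted p under 0.05, both higher, and failed the correction. Abl2, a kinase that acts on the cytoskeleton, had 4052, 4227 and 4060 against 4683, 4450 and 4293 (0.12 ± 0.0393), and Rasa1, a Ras GTPase-activating protein, 3193, 2972 and 3033 against 3128, 3467 and 3554 (0.14 ± 0.0506). The edgeR adjusted p was 0.718 for Abl2 and 0.772 for Rasa1. Of 20 measured genes of the netrin, slit and repulsive guidance families, 11 were higher and 9 lower (median 0.02). Slit2, a repellent ligand of the Robo receptors, was the only one with an unadjusted p under 0.05 (5%, beside 6.19% of all genes). It stood at 1991, 2431 and 2307 against 2487, 2853 and 2557 (0.23 ± 0.0834, edgeR adjusted p = 0.782). Separation without overlap, found in 12.2% of all genes, was seen in 6 of the 28 semaphorin genes (21.4%; 3 higher and 3 lower), 5 of the 22 Eph genes (22.7%; 4 higher and 1 lower) and 2 of the 20 netrin and slit genes (10%; 1 each way). Farp1, Dpysl4, Abl2 and Slit2 were among them and Rasa1 was not.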

How the data were processed

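Total RNA from hippocampi of 6 mice was sequenced as stranded, paired libraries, so that unspliced RNA could be counted as retained introns. Per the labels and the study's methods the authors trimmed reads with cutadapt 1.18, aligned them to mm10 with STAR 2.5.2b and deposited RSEM 1.3.0 expected counts per isoform, which divide reads shared by isoforms by a model. Each column was matched to its mouse by the header named in the labels. Counts were rounded for testing; gene values are sums over a symbol. Genes and isoforms passing filterByExpr (edgeR 4.0.16; minimum count 10, total 15) were compared in R 4.3.3 by the quasi-likelihood test with TMM scaling, genotype only, and Benjamini-Hochberg adjustment over all of them; isoform use was tested with diffSpliceDGE. The study used EBSeq, which was not run here. TPM used GENCODE M21 lengths; 5 member isoforms of another version took the length of the same identifier. Shares were tested by exact permutation. The edgeR tests of genes, isoforms and isoform use were run on simulated data first. The exact permutation test, DESeq2 and limma-voom were not. DESeq2 1.42.0, limma 3.58.1, other scalings and filters, a replicate block, an Xist term and leaving out mice were the alternatives. Named were members with an unadjusted p under 0.05, isoforms (at most 10) that passed this, averaged at least 50 normalized counts and separated the genotypes, the 3 highest levels per role, genes with 2 or more main isoforms (examples), Sema4a-201 as listed by the study, and X-linked members. Members and lists were chosen with earlier results of these data known.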

Additional observations from a re-analysis of the deposited data

How the results depend on the processing

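No member gene was called in any alternative, and no member isoform except Sema4a-201, which DESeq2 called (1 isoform, log2 fold change -0.97, adjusted p 0.00319). Sema5a, Nrp1, Sema6d and the 10 isoforms named by the rule (Ephb3-202 is not among them) kept their direction in all alternatives run. Without both mice with choroid plexus signal, 13 of 53 member genes had the other sign, 9 of them below 0.1 in both fits and the others Sema3b, Sema3f, Epha1 and Plxnd1. The count of member genes with an unadjusted p under 0.05, 3 as reported, was 6 without a filter beyond 1 count, 7 with a term for high Xist, 6 without both mice with choroid plexus signal (added after seeing the data) and 2 to 7 when single mice were left out (7 without N-cre;Fox1 replicate 2, 6 without N-cre;Fox1 replicate 1). That of isoforms, 12 as reported, was 9 to 17 in the alternatives with all mice, 16 without both mice with choroid plexus signal and 5 to 14 when single mice were left out (5 without N-cre;Fox1 replicate 3). Changed isoform use was called for 1 member (Epha4) with limma-voom, for 1 (Plxnb2) without both mice with choroid plexus signal, and for 0 to 2 when single mice were left out (Sema3d without N-cre replicate 2, Plxnb2 and Plxna3 without N-cre replicate 3, Epha4 without N-cre;Fox1 replicate 2). The cause was not tested. Shares over all genes and isoforms were counted in the main fit only, so that none stands beside the counts of the alternatives. The median log2 fold change of the member genes, 0.006, was -0.004 with upper quartile scaling and -0.003 to 0.01 when single mice were left out.

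With the replicate number as a replicate block, 6 member genes had an unadjusted p under 0.05. Deviations of same-numbered mice correlated at 0.365, -0.0819 and -0.19. Whether the numbers pair the mice cannot be told from these values, which differ in sign and rest on 3 mice per genotype. DESeq2 has no test of isoform use, and this alternative was not run. With 3 mice per genotype an exact test of a share cannot go below 0.1, intervals are wide for members with under 1 TPM, and 17 of 159 tested isoforms with an annotation have under 20 bases and no junction of their own.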
